A study of Mus musculus with 6 samples.

Results

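Cytosolic ribosomal protein genes were examined in RNA sequencing of sorted adult-born cells from the mouse olfactory bulb. Members were chosen by symbol alone and with no expression value: Rpl or Rps followed by a number, with at most the ending a, l, x or l1, together with Rpsa, Rplp0, Rplp1 and Rplp2, and without pseudogene symbols ending in -ps. This gave 85 of the 55573 genes in the count table, of which 52 belong to the large (60S) and 33 to the small (40S) subunit. The annotation lists 82 of them as protein coding and 3, Rps4l, Rps12l1 and Rpl6l, as processed pseudogenes. The rule leaves out genes such as Rps3a1, Rack1, Fau and Rpl36al, whose proteins are also part of the ribosome or close copies of such proteins; they are given apart.

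A ribosome is built from a large and a small subunit, each made of ribosomal RNA and a fixed set of proteins. Because nearly every protein is needed in a single copy, the genes are active in all cells and are often used as housekeeping genes. Many of their messenger RNAs begin with a C followed by a run of pyrimidines, the terminal oligopyrimidine (TOP) tract, through which their translation, rather than their amount, follows growth signals. A few members have paralogs that are used mainly in testis or striated muscle.

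Male C57BL/6 mice, 3 months old, received a lentivirus into the rostral migratory stream, and fluorescent cells were sorted from the olfactory bulb 9 days later. The control virus carried Twitch-2B, a fluorescent calcium indicator, with a nuclear H2B-mCherry, and the other viruses carried Twitch-2B with either the human Kv1.2 or the mouse Kir2.1 potassium channel, both meant to lower excitability. All viruses had the FUGW backbone, whose ubiquitin promoter is not specific to neurons, and the sort could hold granule as well as juxtaglomerular cells. Each of the 3 groups had 2 libraries, and each library came from 3000 to 4500 cells pooled from 2 mice, 12 mice in all; p-values therefore measure the spread between such pools.

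The libraries held 8871595 to 13632970 counts. Levels are in CPM, reads per 1e6 counts in tested genes after TMM scaling, and a gene was tested where at least 2 libraries reached 1 CPM, which 12275 genes did. The labelled cell type was poorly represented. The summed level of 10 newborn neuron markers was 495 and 610 CPM in the control libraries, 0.561 and 47.2 CPM in those labelled Kv1.2 and 16.8 and 41.8 CPM in those labelled Kir2.1. In Kv1.2 replicate 1, 9 of the 10 had no count, including Dcx, Gad1, Gad2 and Tubb3. All 10 microglia markers were present in every library and took, of all counts, 3.94% and 0.457% in the control libraries, 6.76% and 6.67% in those labelled Kv1.2 and 4.14% and 6.73% in those labelled Kir2.1. Border macrophage markers reached 953 CPM in Kir2.1 replicate 1 and 0.401 to 58.4 CPM elsewhere, and T and NK cell markers reached 326 and 56.6 CPM in the Kv1.2 libraries and at most 0.597 CPM in the others. Mitochondrially encoded genes took 10.9% and 22.9% of counts in the control and 1.48% to 1.89% elsewhere. Kcnj2, the gene of Kir2.1, was at 8.66 and 10.7 CPM in the control libraries, 17.7 and 0.0814 CPM in those labelled Kv1.2 and 5.80 and 28.3 CPM in those labelled Kir2.1, so Kir2.1 replicate 1 did not show its label. Mouse Kcna2, the gene of Kv1.2, was at 0.299 and 54.0 CPM in the control libraries and 1.92 and 0.407 CPM in those labelled Kv1.2. In those labelled Kir2.1 it was at 0.272 and 0.0906 CPM. Its counts therefore did not set the Kv1.2 libraries apart. The virus carried human Kv1.2 cDNA, and how far its reads would count on the mouse gene was not tested. Groups are therefore called by their labels, and the directions given for the libraries labelled Kir2.1 rest on a pair of which 1 did not carry more Kcnj2 than the control. In sorted pools, fewer cells of a type and less RNA per cell cannot be told apart.

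The starts of several members are shown because they carry the TOP tract by which this gene family is recognised, and because members with and without it are compared below. Each line gives 30 bases, 10 before and 20 from the transcription start that RefSeq annotates (GRCm38.p6), with a tract of C followed by at least 4 pyrimidines in capitals where it begins at the start or within 5 bases of it.
Rpl38 (chr11:114668570-114668599, plus strand): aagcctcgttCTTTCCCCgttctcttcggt
Rps27 (chr3:90213629-90213658, minus strand): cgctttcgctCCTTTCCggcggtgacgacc
Rps21 (chr2:180257369-180257398, plus strand): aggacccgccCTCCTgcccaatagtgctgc
Rplp2 (chr7:141447641-141447670, plus strand): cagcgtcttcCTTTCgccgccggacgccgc
Rpl12 (chr2:32961702-32961731, plus strand): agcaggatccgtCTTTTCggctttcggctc
Rpl31 (chr1:39367841-39367870, plus strand): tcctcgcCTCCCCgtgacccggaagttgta
Rpl41 (chr10:128549149-128549178, minus strand): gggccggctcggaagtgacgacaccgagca
Rpl39l (chr16:10170218-10170247, plus strand): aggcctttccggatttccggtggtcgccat
In Rpl38, Rps27, Rps21 and Rplp2 the tract starts at the annotated first base. Rps21 has another annotated start, not shown, without such a tract. A gene was counted with a tract if any of its annotated starts had it. In Rpl12 and Rpl31 it lies a few bases away. Rpl41 has none in this window, and in Rpl39l the one in the window begins more than 5 bases before the start and was not counted. RefSeq promoters were matched for 62 members, and the tract began at the annotated start in 13 of them (21%), against 813 of 27025 genes (3.0%). A tract beginning within 5 bases of the start was found in 29 members (46.8%) and in 21.2% of all genes. The ETS factor motif CCGGAAGT, searched on both strands over the 250 bases before to 50 after the start, was present in 12 members (19.4%) and 4.3% of all genes. The annotated start can differ from that used in these cells.

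As a family the members were abundant and detected almost throughout. Of 85 members, 82 passed the count minimum, 50 of the 60S and 32 of the 40S subunit, and 80 had at least 1 count in every library. The median member had a mean of 220 CPM, above 94.9% of all genes tested, whose median was 14.0 CPM. A mean of 100 CPM or more was reached by 71 members. The 3 that failed the minimum were Rpl10l, Rpl3l and Rps12l1. Rpl10l, a retrogene used in the male germ line in mice, had 0 counts in all 6 libraries, which allows up to 3 counts in a library, or 0.359 CPM at most. Rpl3l, the copy of Rpl3 used in striated muscle, had 0 to 2 counts per library, as did the pseudogene Rps12l1.

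**Figure D1:**
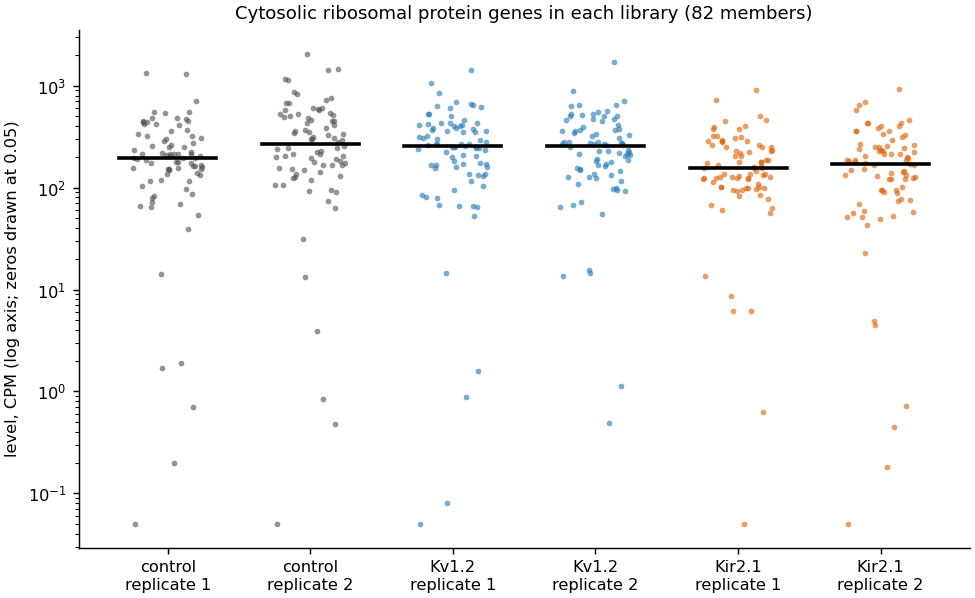
Level of each of the 82 tested members in CPM (log axis) in each library; every point is a member, the line is the median over members, and members with 0 counts are drawn at 0.05. The median lies lowest in both libraries labelled Kir2.1 (7.28 and 7.42 as log2 CPM) and highest in control replicate 2 (8.06).

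Among the most abundant, Rps14, a 40S protein whose loss in people impairs red cell formation, was at 1318 and 1143 CPM in the control libraries, 1055 and 885 CPM in those labelled Kv1.2 and 722 and 641 CPM in those labelled Kir2.1. The 3 groups did not overlap, with the control highest. Rps29, a small zinc-binding 40S protein, was at 705 and 1455, 623 and 703, and 457 and 458 CPM in the same order. Rps19, the gene most often mutated in human Diamond-Blackfan anaemia, was at 486 and 874, 634 and 644, and 296 and 697 CPM, so its groups overlapped. Rpl13, a 60S protein, ranged from 429 to 850 CPM. Per kilobase of transcript, the highest mean levels were 1881 CPM for Rps29, 1662 for Rpl41, 1609 for Rps14 and 1300 for Rps27.

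Some members were far below the rest in every library. Rps10 was at 0.453 to 6.16 CPM, Rpl13a at 0.0801 to 14.4 CPM and Rpl24 at 4.89 to 31.1 CPM, although the protein of each is a regular part of the ribosome. In the annotation, 86.3% of the exonic bases of Rps10 lie in the readthrough gene RPS10-NUDT3, 59.3% of those of Rpl13a in Gm45713 and 71.5% of those of Rpl24 in Gm28037. Gm45713 and Gm28037 had 0 counts in all libraries. Reads that fall on 2 genes cannot be assigned to either by the usual counting, and these levels are uncertain; the strand setting of the counting was not given in the sources used here. Overlap with an exon of another gene also touched Rpl5 (46.6%, Fam69a), Rpl35 (68.3%, Wdr38), Rpl23a (55.4%, Tlcd1) and Rpl30 (34.7%, D730044K07Rik).

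Ribosomal protein genes have many processed pseudogenes, and reads that mapped to several places were removed. Cutting the transcripts of the 82 protein-coding members into 75-base stretches, a median of 51.4% of stretches per member matched no other annotated gene exactly, and 78 members shared at least 1 stretch with another gene, up to 64 other genes for Rpl7a. Rps27 had 1.5% of its stretches to itself and Rpl5 7.5%, whereas Rps3 had 100%. At 100 bases, the read length that the labels give, the median was 59.8%. Across the 80 tested protein-coding members, the mean level was little related to the unique share (Spearman 0.14) or to transcript length (Spearman -0.16, Pearson -0.05); these points share libraries and depth. The 275 pseudogene symbols ending in -ps together held 0.0159% to 0.0315% of counts.

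Members took 2.07% and 2.71% of all counts in the control libraries, 2.25% and 2.30% in those labelled Kv1.2 and 1.97% and 1.63% in those labelled Kir2.1. Exact 95% binomial intervals were at most 0.0104 percentage points to either side of these values and cover counting error only. The means were 2.39% ± 0.448 (SD, n = 2), 2.28% ± 0.0314 (SD, n = 2) and 1.80% ± 0.240 (SD, n = 2). Both Kir2.1 values lay below every other library. With mitochondrially encoded genes left out of the total, the shares became 2.33% and 3.51%, 2.29% and 2.33%, and 2.01% and 1.65%, in the same order of groups. The summed level of 60S members over that of 40S members was 1.27 and 1.46 in the control libraries, 1.39 and 1.38 in those labelled Kv1.2 and 1.45 and 1.26 in those labelled Kir2.1. These ratios overlapped between all groups.

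Replicates differed less in ribosomal protein genes than in genes at large. The median absolute difference of log2 CPM between the replicates of a group was 0.57 for control, 0.29 for Kv1.2 and 0.52 for Kir2.1, against 1.68, 1.02 and 1.32 over all genes tested. Among the 1377 tested genes with a mean of at least 100 CPM it was 1.21, 0.39 and 0.59, and among the 71 members at that level 0.56, 0.29 and 0.50. More than a 2-fold difference was seen in 20 members for control, 7 for Kv1.2 and 13 for Kir2.1. Over the 6 libraries, 17 of 82 members stayed within a 2-fold range and 64 within a 4-fold range. The narrowest among abundant members were Rps27a, which is made as a fusion with ubiquitin, with a log2 range of 0.53 (249 to 361 CPM), Rpl30 with 0.57 (154 to 228 CPM) and Rps27l with 0.62 (377 to 580 CPM). The widest were Rpl31 with 3.03, Rpl41 with 2.73 and Rpl18 with 2.61 (51.3 to 313 CPM).

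In the median, the control libraries differed from each other more in short than in long members. Rpl41, which codes for the smallest ribosomal protein, was at 539 and 2057 CPM in the control libraries, 600 and 467 CPM in those labelled Kv1.2 and 310 and 384 CPM in those labelled Kir2.1. Rpl31, a 60S protein near the exit tunnel, was at 252 and 716 CPM in the control libraries, 271 and 178 CPM in those labelled Kv1.2 and 156 and 87.7 CPM in those labelled Kir2.1. In both genes control replicate 2 stood far above the other 5 libraries. Rpl38, whose loss in mice alters the axial skeleton, was at 180 and 593, 265 and 267, and 100 and 121 CPM, with the same library highest. Of 82 members, 62 were higher in control replicate 2 than in control replicate 1, and 33 had their highest level of all libraries there. The median log2 difference was 0.71 in the 27 shortest transcripts (271 to 577 bases), 0.40 in the 26 of middle length and 0.32 in the 27 longest (878 to 3706 bases). Across 80 members the difference had a Spearman correlation of -0.34 with transcript length and a Pearson correlation of -0.22 with its log2. The largest rises, in Rpl13a and Rps24, were in transcripts of 1047 and 1613 bases. Control replicate 2 also had the lowest share of microglia markers and the highest share of mitochondrially encoded genes. The summed level of 6 astrocyte markers was 773 and 2116 CPM in the control libraries and 230 to 362 CPM in the other 4, and that of 6 markers of the oligodendrocyte lineage was 208 and 606 CPM and 1.04 to 104 CPM. These lists, like the newborn neuron markers, were thus higher in both controls than in all channel libraries and highest in control replicate 2. The part of any of them in this difference, or in the comparisons with the control, was not tested.

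**Figure D2:**
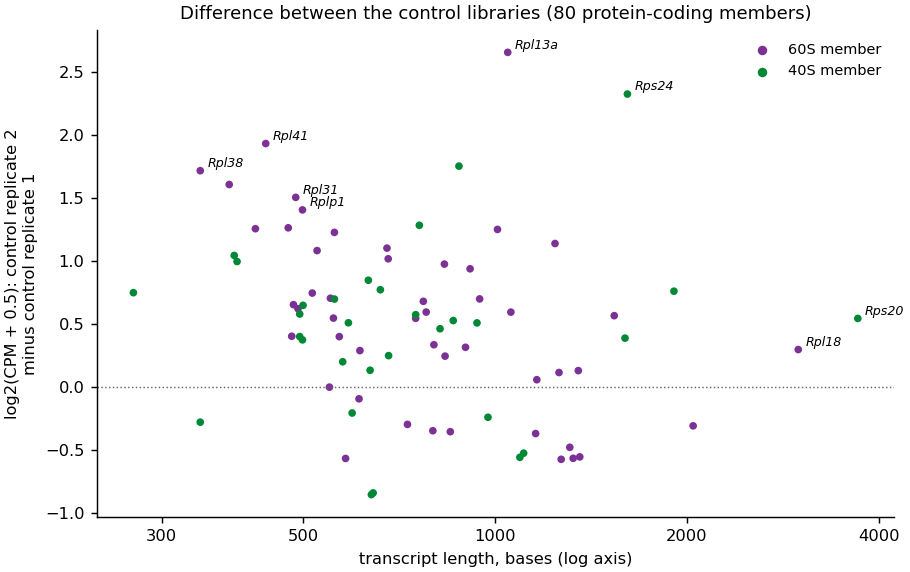
Difference between the control libraries, log2(CPM + 0.5) of replicate 2 minus replicate 1, against transcript length in bases (log axis) for the 80 tested protein-coding members; purple points are 60S and green points 40S members. Rpl13a and Rps24 lie highest, followed by short transcripts such as Rpl41, Rpl38, Rpl31 and Rplp1 among others, while points on either side of 0 occur at most lengths.

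Against the control, the libraries labelled Kv1.2 showed no common direction across the family. Of 82 members, 44 had a log2 fold change above 0 and 38 below it (52.4% of all genes), with a median of 0.06 (-0.04 with RLE scaling), beside -0.12 over all genes tested. None of the members passed an adjusted p of 0.05 in the edgeR quasi-likelihood test, which called 0% of all genes, and none had an unadjusted p under 0.05, where 3.23% of all genes were higher and 8.81% lower. DESeq2 called 1286 genes, of which 1 was a member, Rps4l, and the likelihood ratio test of edgeR called 723 genes and no member. Without control replicate 1 the median was -0.27 with 56 of 81 members below 0, and without control replicate 2 it was 0.23 with 57 of 82 above 0. The groups did not overlap in 14 members that were higher (19.3% of all genes) and 9 that were lower (24.9% of all genes).

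Among the members with the smallest p in that comparison, Rpl7, a 60S protein, was at 212 and 221 CPM in the control and 399 and 445 CPM in the Kv1.2 libraries, a log2 fold change of 0.96 (SE 0.562, edgeR adjusted p = 0.517). In the other direction, Rpl41 had a log2 fold change of -1.28 (SE 0.716, edgeR adjusted p = 0.496). Rps21 was at 194 and 387 CPM in the control and 136 and 134 CPM in the Kv1.2 libraries, -1.10 on the log2 scale (SE 0.669, edgeR adjusted p = 0.537). Rpl31 had -1.11 (SE 0.724). None of these passed the test, and the lower values rested on control replicate 2. Without that library the log2 fold changes of Rpl41, Rps21 and Rpl31 were -0.10, -0.61 and -0.25, and without control replicate 1 they were -2.05, -1.62 and -1.78.

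In the libraries labelled Kir2.1 most members lay below the control. A log2 fold change below 0 was found in 65 of 82 members, 37 of 50 in the 60S and 28 of 32 in the 40S subunit, where 49.1% of all genes were below 0. The median over members was -0.57 (quartiles -0.99 and -0.09), beside 0.04 over all genes tested and 0.10 over the 1377 genes at 100 CPM or more. The groups did not overlap in 39 members that were lower (22.5% of all genes) and in 3 that were higher (19.9% of all genes), Rpl7, Rpl10 and Rpl7l1. Among the 39, Rps4l counts by scaling alone, with 2 counts each in control replicate 1 and Kir2.1 replicate 2. No member passed an adjusted p of 0.05 in edgeR, which called 0% of all genes, and 5 were lower at an unadjusted p under 0.05 (6.15% of all genes) and 0 higher (3.25%). DESeq2 called 964 genes and the likelihood ratio test 225, with no member among them.

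The 5 members with an unadjusted p under 0.05 were Rpl31, Rpl12, Rpl41, Rpl38 and Rpl37a. All are of the 60S subunit, as are 50 of the 82 tested members. The median log2 fold change was -0.56 in the 60S and -0.60 in the 40S subunit. Rpl12, which sits at the base of the stalk that recruits elongation factors, was at 134 and 295 CPM in the control libraries, 136 and 212 CPM in those labelled Kv1.2 and 56.5 and 57.6 CPM in those labelled Kir2.1. Both Kir2.1 values were less than the lowest of the others, and the log2 fold change against the control was -1.91 (SE 0.723, edgeR adjusted p = 0.521). Rpl37a, a zinc-binding protein, was at 372 and 543 CPM in the control libraries, 379 and 369 CPM in those labelled Kv1.2 and 109 and 214 CPM in those labelled Kir2.1, -1.50 on the log2 scale (SE 0.615, edgeR adjusted p = 0.527). Rpl31, Rpl41 and Rpl38, whose levels are given above, had log2 fold changes of -1.99, -1.90 and -1.81 (SE 0.743, 0.729 and 0.725). Without control replicate 2 these were -1.11, -0.70 and -0.77, and that of Rpl12 was -1.29. Without control replicate 1 they were -2.65, -2.66 and -2.52, and that of Rpl12 was -2.46. Leaving out 1 library at a time, the median over members ran from -0.85 (without control replicate 1) to -0.38 (without control replicate 2). In each of these fits 62 to 70 members lay below 0.

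Members above the control in the libraries labelled Kir2.1 were few. Rpl10, a late-joining 60S protein, was at 251 and 197 CPM in the control libraries, 401 and 336 CPM in those labelled Kv1.2 and 376 and 405 CPM in those labelled Kir2.1. All 4 channel libraries were above both controls, with log2 fold changes of 0.72 (SE 0.541) and 0.80 (SE 0.542, edgeR adjusted p = 0.655). Rpl7 showed the same order, with 406 and 256 CPM in the Kir2.1 libraries. Rpl7 and Rpl10 were the 2 members (2.44%) that lay above both controls in all 4 channel libraries, beside 8.52% of all genes. Below both controls in all 4 lay 7 members (8.54%), a smaller share than the 13.8% of all genes. These were Rps12, Rps13, Rps14, Rps21, Rps25, Rps26 and Rps29, all of the 40S subunit. The set changed with the scaling. With library sizes only, 10 members were lower (13.1% of all genes), and on totals without mitochondrially encoded genes 16 (15% of all genes). With the channel groups pooled against the control, 57 of 82 members (54.3% of all genes) were below 0, with a median of -0.24 beside -0.19 over all genes. By subunit the pooled medians were -0.24 (60S) and -0.21 (40S). No member passed an adjusted p of 0.05 in edgeR, where 0.0244% of all genes did. Rpl41 and Rpl31 were lower at an unadjusted p under 0.05 (10.5% of all genes) and none was higher (2.85%), with -1.59 (SE 0.588) and -1.55 (SE 0.597) on the log2 scale, which became -0.40 and -0.68 without control replicate 2. The comparisons with the control share the control libraries.

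The direct comparison of the channel groups, which uses no control library for its means, gave the clearest common direction. Against the libraries labelled Kv1.2, those labelled Kir2.1 had 69 of 82 members below 0, 42 of 50 in the 60S and 27 of 32 in the 40S subunit, where 46.2% of all genes were below 0. The median over members was -0.55 (quartiles -0.97 and -0.25), beside 0.13 over all genes tested. Among the 1377 genes at 100 CPM or more the median was -0.26 and 64.9% were below 0. In 51 members (62.2%) both Kir2.1 libraries lay below both Kv1.2 libraries, which was so in 16.7% of all genes, and in 2 members (2.44%), Rpl8 and Rps15a, they lay above (21.5% of all genes). When any 1 library was left out, the median over members was -0.66 to -0.53, with 66 to 69 members below 0. With library sizes alone as the scaling it was -0.32, where the median of all genes was 0.38, and 60 members were below 0. Both Kir2.1 libraries then lay below both Kv1.2 libraries in 37 members (45.1%), against 13.6% of all genes. On totals without mitochondrially encoded genes this was so in 35 members (42.7%), against 13.6% of all genes.

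**Figure D3:**
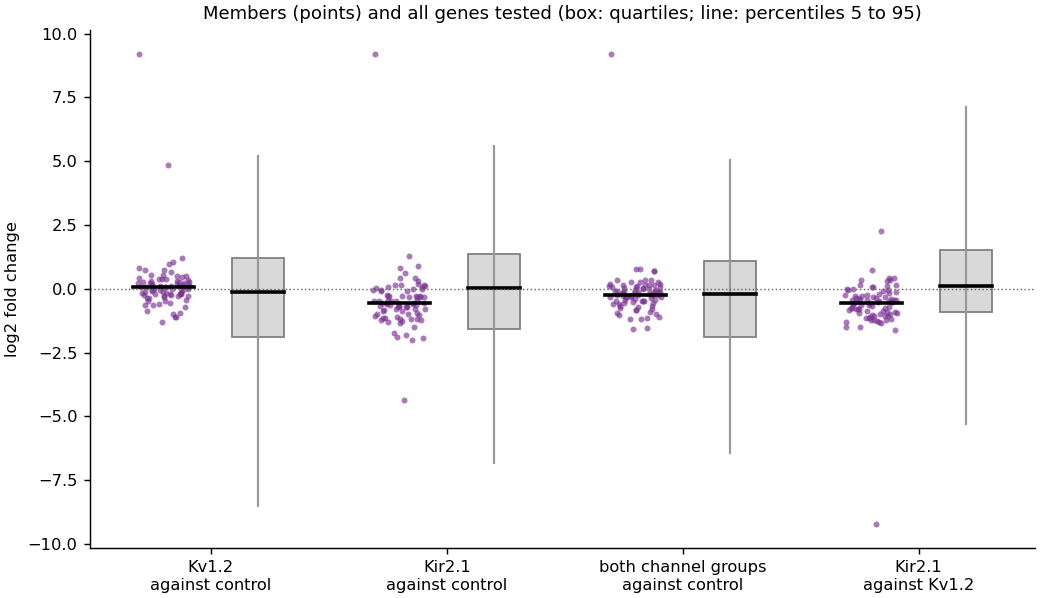
Log2 fold changes of the 82 members (points, line at their median) in each comparison, beside all 12275 genes tested (box at the quartiles, line at the median, whiskers at percentiles 5 and 95). Members form a narrow cloud, with medians of 0.06, -0.57, -0.24 and -0.55 from left to right; Rpl39l stands at 9.2 in the 3 comparisons with the control, and Rps4l at -9.22 in the last.

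Single members did not pass the test in that comparison. No adjusted p in edgeR was below 0.05 (0% of all genes), and 1 member, Rps4l, was lower at an unadjusted p under 0.05 (2.05% of all genes), while 0 were higher (4.02%). The log2 fold change of Rps4l was -12.4 to -8.29 when 1 library was left out. Rpl12 had a log2 fold change of -1.61 (SE 0.716, edgeR adjusted p = 0.739). Rps4x, the X-linked 40S gene, was at 234 and 198 CPM in the control libraries, 414 and 357 CPM in those labelled Kv1.2 and 124 and 185 CPM in those labelled Kir2.1. Its 3 groups did not overlap, with the control between the others, and the difference between the channel groups was -1.32 (SE 0.579, edgeR adjusted p = 0.739). Rpl39 had 0.43 (SE 0.732), Rpl8 0.73 (SE 0.672; 0.23 without Kir2.1 replicate 2) and Rps10, at a few CPM, 2.25 (SE 1.82) in the other direction. The shares of microglia markers and of mitochondrially encoded genes overlapped between these groups, and the part of the border macrophage, T and NK cell markers given above was not tested.

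**Figure D4:**
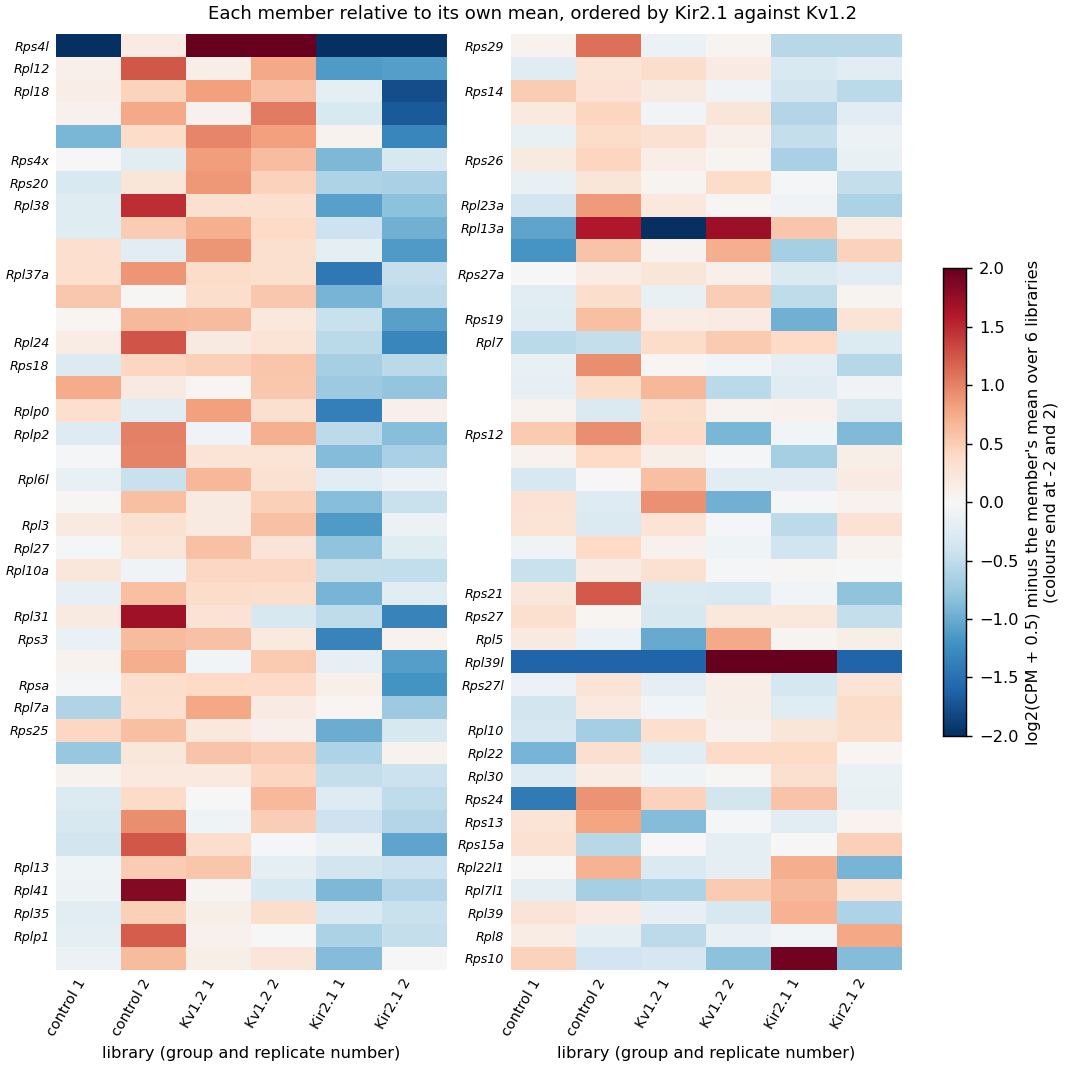
Each tested member (row; members named in the text are labelled) in each library (column), as log2(CPM + 0.5) minus the mean of that member over the 6 libraries; red is above and blue below the mean, and colours end at -2 and 2. Rows run from the lowest (top left) to the highest log2 fold change of Kir2.1 against Kv1.2 (bottom right), and the columns of the Kir2.1 libraries are blue over most of the left panel, where control replicate 2 is the most often red.

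The stalk proteins followed the family. Rplp0, the anchor of the stalk, was at 476 and 325 CPM in the control libraries, 662 and 470 CPM in those labelled Kv1.2 and 145 and 403 CPM in those labelled Kir2.1. Its partner Rplp1 was at 436 and 1154, 529 and 500, and 319 and 358 CPM, and Rplp2 at 213 and 510, 242 and 416, and 177 and 141 CPM. For all of these both Kir2.1 values were below both Kv1.2 values, with log2 fold changes of -1.05 (SE 0.677), -0.60 (SE 0.623) and -1.05 (SE 0.673), none of which passed the test. Rpsa, a 40S protein also known as a laminin receptor, was at 115 and 151, 157 and 155, and 128 and 51.4 CPM, with -0.80 (SE 0.734).

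Rpl5 and Rpl27 belong to a panel of housekeeping genes that the study read together and reported as stable. The study also found no difference in Rpl5 by PCR. Rpl5, a 60S protein that travels with the small ribosomal RNA of that subunit, was at 192 and 155 CPM in the control libraries, 83.8 and 283 CPM in those labelled Kv1.2 and 175 and 183 CPM in those labelled Kir2.1. The replicates labelled Kv1.2 differed more than 3-fold, and enclosed all the others, with log2 fold changes of 0.08 and 0.05 against the control (SE 0.739 each). Rpl27 was at 174 and 213, 268 and 215, and 102 and 151 CPM. Its groups did not overlap, with Kv1.2 highest and Kir2.1 lowest, at 0.32 (SE 0.602) and -0.61 (SE 0.603) against the control. Between control and Kv1.2 this rests on 213 against 215 CPM. Neither passed the test in edgeR, with adjusted p of 0.991 and 0.994 for Rpl5 and 0.933 and 0.800 for Rpl27.

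Rps4l was the member that most separated the libraries labelled Kv1.2 from the others. This intronless copy, annotated as a transcribed processed pseudogene at chr6:148354656-148355598 on the plus strand (GRCm38), had 2 and 33 counts in the control libraries, 824 and 681 counts in those labelled Kv1.2 and 0 and 2 counts in those labelled Kir2.1. In CPM these were 0.199 and 3.95, 66.0 and 55.4, and 0 and 0.181, so both Kv1.2 libraries lay above all others. Control replicate 1 and Kir2.1 replicate 2 held 2 counts each, and their CPM differ by scaling alone. The control and Kir2.1 groups were thus not separated. By summed counts the Kv1.2 libraries held 671-fold more than the Kir2.1 libraries (95% interval 185 to 5545, counting error only). They held 31.9-fold more than the control libraries, whose sum of 35 counts came almost wholly from replicate 2, so this fold was 305 against control replicate 1 (84.3 to 2522) and 15.4 against control replicate 2 (10.9 to 22.4). The log2 fold change of Kir2.1 against Kv1.2 was -9.22 (SE 2.79, edgeR unadjusted p = 0.0127, adjusted p = 0.739), and DESeq2 gave an adjusted p of 2.7e-04. Against the control it was 4.87 (SE 2.28) for Kv1.2, or 3.84 without control replicate 1 and 8.09 without control replicate 2, and -4.35 (SE 2.28) for Kir2.1. Its transcript matched no other gene in 91.9% of its 75-base stretches, and the remaining ones matched Rps4l-ps, which had 4 and 5 counts in the Kv1.2 libraries and 0 elsewhere. It lies on the opposite strand of Tmtc1 and overlaps none of its exons. Tmtc1 had 57 and 233, 2 and 3, and 8 and 1 counts in the same order, with both controls above all others. Each library was a pool of 2 mice, and the mice of a pool cannot be told apart.

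Rpl39l, the copy of Rpl39 used in the male germ line, was present in 2 libraries of different groups, with 167 counts in Kv1.2 replicate 2 and 149 in Kir2.1 replicate 1 and 0 in the other 4. Its parent Rpl39 had 832 to 2068 counts in every library. All of its 75-base stretches were unique. The fitted log2 fold change of 9.21 against the control has an SE of 5.05 and depends on libraries at 0.

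Other paralogs were used throughout. Per base of gene length, Rpl22l1 made up 75.4% and 67.4% of the Rpl22 and Rpl22l1 sum in the control libraries, 60.1% and 51.8% in those labelled Kv1.2 and 66.6% and 44.7% in those labelled Kir2.1. Both Kv1.2 values were below both controls, and the Kir2.1 values spanned the Kv1.2 range. Rps27l, which p53 activates, made up 50.9% and 62.0%, 60.5% and 57.1%, and 48.7% and 70.0% of its pair with Rps27, few of whose own stretches are unique. Rpl7l1 took 24.0% and 17.9%, 11.1% and 19.9%, and 22.9% and 26.6% of its pair with Rpl7. Rps4l reached 21.6% and 21.2% of its pair with Rps4x in the Kv1.2 libraries, 0.147% and 3.33% in the control, and 0 and 0.169% in the Kir2.1 libraries. Rpl3l made up at most 0.275% of its pair with Rpl3, and Rpl10l had no counts. With the length of the main transcript in place of the gene length, a choice made after seeing the data, Rpl22l1 averaged 59.5%, 42.8% and 43.0% in the same order of groups.

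**Figure D5:**
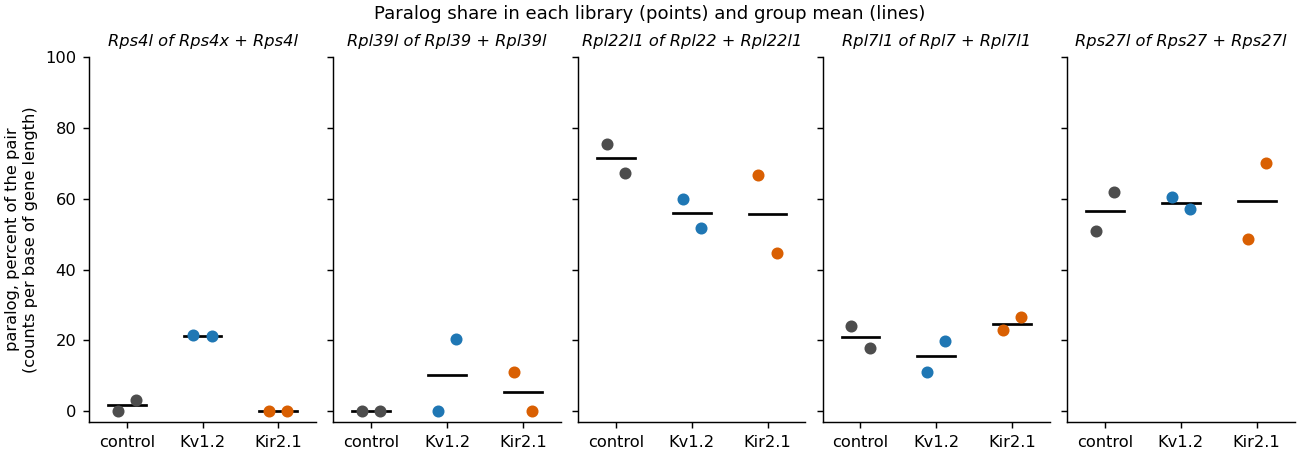
Share of each paralog in the sum of its pair, in percent of counts per base of gene length, in each library (points) and as the group mean (lines), for control, Kv1.2 and Kir2.1. Rps4l stands at 21.6% and 21.2% in the Kv1.2 libraries and at 0 to 3.33% elsewhere, Rpl39l is above 0 in 2 libraries, and the other 3 paralogs are used in every library.

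Members with and without a TOP tract at the annotated start were set side by side, with no test of the difference. Those without it include members with a tract within 5 bases of that start, such as Rpl12 and Rpl31. Among 13 with the tract the median log2 fold change was -0.54 in Kir2.1 against control and -0.43 in Kir2.1 against Kv1.2, and among 47 tested members without it -0.55 and -0.50. The numbers below 0 were 8 of 13 and 39 of 47 in Kir2.1 against control, and 11 of 13 and 38 of 47 in Kir2.1 against Kv1.2. By transcript length, the medians for Kir2.1 against Kv1.2 were -0.54, -0.50 and -0.72 in the shortest, middle and longest members. For Kv1.2 against control they were -0.22, -0.01 and 0.15, and for Kir2.1 against control -0.84, -0.51 and -0.49.

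Ribosomal genes outside the rule were read from the same fits. Rps3a1, the regular source of a 40S protein, was at 338 and 247 CPM in the control libraries, 296 and 346 CPM in those labelled Kv1.2 and 202 and 205 CPM in those labelled Kir2.1. Fau, which codes for a 40S protein fused to a ubiquitin-like one, was at 271 and 421, 288 and 301, and 147 and 110 CPM. Its log2 fold change of Kir2.1 against control was -1.43 (SE 0.589, edgeR adjusted p = 0.528). Rack1, a scaffold on the 40S head, was at 128 and 104, 253 and 344, and 295 and 116 CPM, with 1.36 (SE 0.684) for Kv1.2. Rpl36al was at 2.36 to 10.8 CPM. Of the 9 genes in this list, 8 were below 0 in Kir2.1 against control and 9 in Kir2.1 against Kv1.2, with medians of -0.71 and -0.66, and none passed the adjusted test.

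Lists of other translation genes are given beside the family, with no test of a difference between lists. The lists overlap, and the TOP list shares Eif3e with the initiation factors and Fau and Rack1 with the ribosomal genes above. No gene of any list passed an adjusted p of 0.05 in edgeR in any of the 4 comparisons. In Kir2.1 against Kv1.2, 7 of 9 tested elongation factor genes were below 0 (median -0.31) and 16 of 39 initiation factor genes (0.23). Of other genes listed as TOP genes, not picked by a tract found here, 14 of 20 were below 0 (-0.27). So were 24 of 46 ribosome biogenesis genes (-0.11), 11 of 23 tRNA synthetase genes (0.11) and 51 of 77 mitochondrial ribosomal protein genes (-0.35). The numbers lower and higher at an unadjusted p under 0.05 were 0 and 1, 0 and 1, 0 and 0, 3 and 1, 1 and 2, and 2 and 0. In Kir2.1 against control the medians were -0.25, 0.19, -0.38, 0.29, 0.52 and -0.58, and in Kv1.2 against control 0.18, 0.26, -0.08, 0.25, 0.61 and -0.22. At an unadjusted p under 0.05, Kir2.1 against control had 0, 1, 1, 3, 1 and 5 genes lower and 0, 1, 1, 0, 0 and 0 higher, and Kv1.2 against control had 1, 0, 0, 2, 2 and 1 lower and 0, 1, 0, 1, 0 and 1 higher. Eef1a1, the main elongation factor, was at 433 and 450 CPM in the control libraries, 857 and 592 CPM in those labelled Kv1.2 and 463 and 477 CPM in those labelled Kir2.1. Mrpl13, of the mitochondrial ribosome, was at 163 and 328, 20.1 and 61.8, and 35.2 and 52.4 CPM, with -2.59 (SE 0.889) for Kv1.2 and -2.49 (SE 0.886) for Kir2.1. Nop58, a core protein of the box C/D particles that guide ribosomal RNA methylation, was at 40.1 and 19.8, 76.5 and 45, and 0.634 and 0.906 CPM, with -5.26 (SE 1.51, edgeR adjusted p = 0.521) for Kir2.1. Fbl, the methyltransferase of the same particles, was at 17 and 7.78, 102 and 112, and 28.2 and 48.6 CPM, with 3.10 (SE 1.06, edgeR adjusted p = 0.394) for Kv1.2.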

How the data were processed

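RNA of 6 libraries was sequenced after SMART-Seq v4 amplification (17 cycles) and tagmentation of 150 pg of cDNA. Per the labels and the methods of the study, the authors aligned reads to GRCm38 with STAR 2.7.0f, removed multi-mapping reads with SAMtools 1.9 and made the deposited raw counts per gene with Subread 1.6.4; their R 3.5.2 and edgeR 3.24.3 results, deposited as fold changes and p-values, were not used. The read length is 75 bases, single, in one source and 100 bases, paired, in the other. The counts were used as deposited. Genes that reached 1 CPM in 2 or more libraries entered the quasi-likelihood test of edgeR 4.0.16 in R 4.3.3 fitted to all 6 libraries with TMM scaling and Benjamini-Hochberg adjustment at 0.05; the code was tested on simulated data. DESeq2 1.42.0, the likelihood ratio test, other scalings and count minimums, a replicate block and leaving out libraries were the alternatives. Log2 CPM used a prior count of 2. Gene structure came from GENCODE for GRCm38, starts from RefSeq.

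Members and gene lists were chosen with earlier results of these data known. The members named were Rpl5 and Rpl27, the 4 most abundant of each subunit, up to 3 per direction and comparison by smallest p, the paralog pairs, the stalk genes and Rpsa, the 3 narrowest and 3 widest among those at 100 CPM or more, and all below the minimum; others were named after their values were seen, and some genes of these groups are not reported here. Lists covered other ribosomal genes, elongation, initiation, other TOP genes, ribosome biogenesis, tRNA synthetases and the mitochondrial ribosome.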

Additional observations from a re-analysis of the deposited data

Results flagged for a closer look

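In 8 of the 82 tested members (9.76%), beside 2.29% of all genes tested, both Kv1.2 libraries lay on the other side of both control libraries from both Kir2.1 libraries, in each case with Kv1.2 above and Kir2.1 below. The difference was tested in edgeR as Kir2.1 against Kv1.2, and in none did it pass an adjusted p of 0.05. For the 7 named here the log2 fold change was -9.22 for Rps4l, -1.49 for Rpl18, -1.32 for Rps4x, -1.31 for Rps20, -1.12 for Rps18, -0.93 for Rpl27 and -0.90 for Rpl10a, with adjusted p of 0.739 to 0.802. Rps4l was called by DESeq2, with an adjusted p of 2.7e-04. Rps4l had 0 and 2 counts in the Kir2.1 libraries, so the size of its fold change rests on those counts. Control replicate 1 also had 2, so the place of Rps4l among the 8 rests on scaling alone.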

How the results depend on the processing

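The direction of the family in Kir2.1 against Kv1.2 and in Kir2.1 against control, given by the median over members, was the same under every alternative run; in Kv1.2 against control it was near 0 and changed sign. What the alternatives mostly changed was the number of genes called, and the cause was not tested. With DESeq2, 1286 genes (Kv1.2 against control), 964 (Kir2.1 against the same), 1228 (both groups against it) and 627 (Kir2.1 against Kv1.2) were called. Members among them were 1, 0, 0 and 1, with Rps4l the member in both. At an unadjusted p under 0.05, 1 member was higher for Kv1.2 and 1 for both groups together, beside 760 and 934 of 12275 genes. The likelihood ratio test called 723, 225, 1097 and 68 genes and no member. At an unadjusted p under 0.05, 2, 1 and 1 members were higher in the comparisons with the control, beside 731, 776 and 741 of 12275 genes. Without a count minimum, 138, 122, 263 and 27 genes were called. At an unadjusted p under 0.05, 2, 1 and 1 members were then higher in the comparisons with the control, beside 956, 960 and 655 of 39646 genes. For Kir2.1 and for both groups together 1 member was lower, beside 1304 and 3176 genes. The medians were 0.31 for Kv1.2 and 0.017 for both. With library sizes only, 1 member was lower at that threshold for Kir2.1 and 1 for both groups together, beside 653 and 1219 of 12275 genes. The medians were -0.36 for Kir2.1 against control and -0.32 for Kir2.1 against Kv1.2. With a fit of the compared groups alone, members at that threshold were 1 higher for Kv1.2, 0 lower for Kir2.1 and 12 lower in Kir2.1 against Kv1.2. Over all genes the same counts were 387 of 10600, 838 of 10978 and 346 of 9832.

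Leaving out each library in turn gave 0 to 3, 0 to 11, 0 to 37 and 0 genes called in the order above and 0 members. Members at an unadjusted p under 0.05 were 0 to 1 higher and 0 to 6 lower for Kv1.2, 0 higher and 0 to 21 lower for Kir2.1, 0 higher and 0 to 14 lower for both, and 0 higher and 1 to 12 lower in Kir2.1 against Kv1.2. The medians ran from -0.27 to 0.23, -0.85 to -0.38, -0.50 to -0.086 and -0.66 to -0.53, the ends of the first 3 being set by the control libraries. Rpl5 changed sign, from -1.06 to 0.71 for Kv1.2 and -0.16 to 0.12 for Kir2.1, as did Rpl39 in Kir2.1 against Kv1.2, from -0.36 to 0.92.

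Libraries with the same replicate number did not deviate together (correlations of 0.01, -0.04 and -0.003), so the numbers give no pairing. With the replicate block, 0, 0, 9 and 0 genes and no member were called, and Rpl5 for Kv1.2 was -0.078. At an unadjusted p under 0.05, 0 members were lower for Kir2.1 and for both groups together, beside 452 and 985 of 12275 genes.

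Without mitochondrially encoded genes in the total, members took 2.92% of counts in control and 2.31% in Kv1.2 libraries. That total was chosen after seeing the data. Kv1.2 against control then had 7 members higher without overlap (16% of all genes) and 22 lower (28.1%). For both groups against control 1 was higher (7.73%) and 16 lower (15%). For Kir2.1 against control 2 were higher (19.5%) and 41 lower (22.3%). For Kir2.1 against Kv1.2 5 were higher (24.4%) and 35 lower (13.6%). Library totals with no TMM were also chosen after seeing the data. With them 7 were higher for Kir2.1 against control (22.8% of all genes) and 30 lower (20%). For Kir2.1 against Kv1.2 5 were higher (24.4%) and 37 lower (13.6%). The subunit ratio in the Kv1.2 libraries was 1.36 without the most abundant member of each subunit. With the main transcript's length, likewise chosen afterwards, paralog shares fell or rose by less than 2-fold. With 2 libraries in a group, no single member could be told from the spread in the quasi-likelihood test of edgeR. This includes Rps4l, at a log2 fold change of -9.22 in Kir2.1 against Kv1.2 (edgeR adjusted p = 0.739).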
